A study of Mus musculus with 18 samples.

Results

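Lipopolysaccharide (LPS) was 1 of the 2 stimuli given to these mouse B cells, and 10 genes that sense LPS and nucleic acids or carry the signal of Toll-like receptors are described here. They were picked by symbol, with no filter on the measured values, as the genes with the Entrez numbers of *Tlr4*, *Ly96*, *Cd14*, *Cd180*, *Ly86*, *Tlr7*, *Tlr9*, *Myd88*, *Ticam1* and *Irak3*. Earlier results of these data were known when the genes were chosen. All 10 were found among the 28096 genes counted, and all 10 were among the 14161 genes that passed the expression filter.

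TLR4 recognizes LPS together with its co-receptor MD-2, the product of *Ly96*, and CD14 hands LPS to that complex. RP105, the product of *Cd180*, is a TLR4-like surface protein without a signaling TIR domain that pairs with MD-1, the product of *Ly86*, and B cells are known for carrying much of it. TLR7 and TLR9 sense RNA and DNA in endosomes. MyD88 is the adaptor of nearly all Toll-like receptors, TRIF (*Ticam1*) is the adaptor of the interferon arm below TLR4 and TLR3, and IRAK-M (*Irak3*) is an inhibitor of IRAK signaling.

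RNASeq was performed on B cells from spleens of WT and *Ubqln1*-/- mice of strain C57BL/6 N that were at least 8 weeks old. *Ubqln1*, which encodes the proteasome shuttle and chaperone Ubiquilin-1, lacked exon 2 in the knockout mice, which were made from ES cells in which the exon had been deleted. Cells were left resting, given anti-IgM (F(ab)2 fragments at 10 μg/mL, which crosslink the B cell receptor) or given LPS of *E. coli* K12 (20 μg/mL), each for 4 hr, and 3 wells were pooled for each library. There were 3 libraries for each of the 6 combinations of genotype and stimulus, 18 in all, and the study describes them as independent experiments.

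The libraries held between 15368941 and 41072854 counts. *Ubqln1* was measured between 91.4 and 128 CPM (counts scaled to equal library totals) in the 9 *Ubqln1*-/- libraries and between 230 and 339 CPM in the 9 WT libraries, and the counts that remain in the knockout can come from exons that were not deleted. The 8 B cell markers summed to between 7530 and 9060 CPM in resting libraries, 2890 and 3620 after anti-IgM and 5930 and 7010 after LPS, and 7 of the 8 fell after anti-IgM in each genotype, the stimulus under which *Irak3*, *Tlr4*, *Tlr9* and *Ly86* also fell. The 5 dendritic cell markers summed to 11.8 to 18.8 CPM at rest, 21.7 to 29.2 after anti-IgM and 40.9 to 69.2 after LPS. Of the 4 that were tested, 1 rose after anti-IgM and 2 after LPS in each genotype. In WT cells after LPS *Zbtb46* (log2 fold change 2.87) and *Flt3* (1.27) rose, while *Xcr1* (0.26) and *Clec9a* (-0.016) were not called. The 4 plasma cell markers summed to 354 to 585 CPM at rest, 335 to 544 after anti-IgM and 219 to 420 after LPS in WT cells, and to 284 to 312, 279 to 298 and 185 to 199 CPM in *Ubqln1*-/- cells, with 0 of the 4 called between genotypes. The part of these markers in the results was not tested. All 7 neutrophil and all 5 NK cell markers were under 1 CPM in every library, and of the 7 T cell markers at most 2 reached it in any group, *Lck* with the highest level. The macrophage list is given beside *Tlr4*. In these bulk samples, fewer cells of a type and less RNA per cell cannot be told apart.

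Levels are given as RPKM, which scales the count to the gene's width and to the TMM-scaled library total, so that genes can be compared per length. Differences are log2 fold changes with their standard error (SE), and a gene was called when its Benjamini-Hochberg adjusted p from edgeR's quasi-likelihood test was under 0.05 over all 14161 genes tested. In resting WT cells the order of the mean RPKM was *Ly86* (118), *Tlr9* (60.8), *Cd180* (53.2), *Myd88* (31.7), *Ticam1* (27.2), *Irak3* (17.9), *Tlr7* (9.29), *Tlr4* (5.51), *Ly96* (4.75) and *Cd14* (0.164). The libraries of the neighbors *Tlr9* and *Cd180* overlapped, as did those of *Tlr4* and *Ly96*, whereas all other neighbors in this order were apart.

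**Figure D1:**
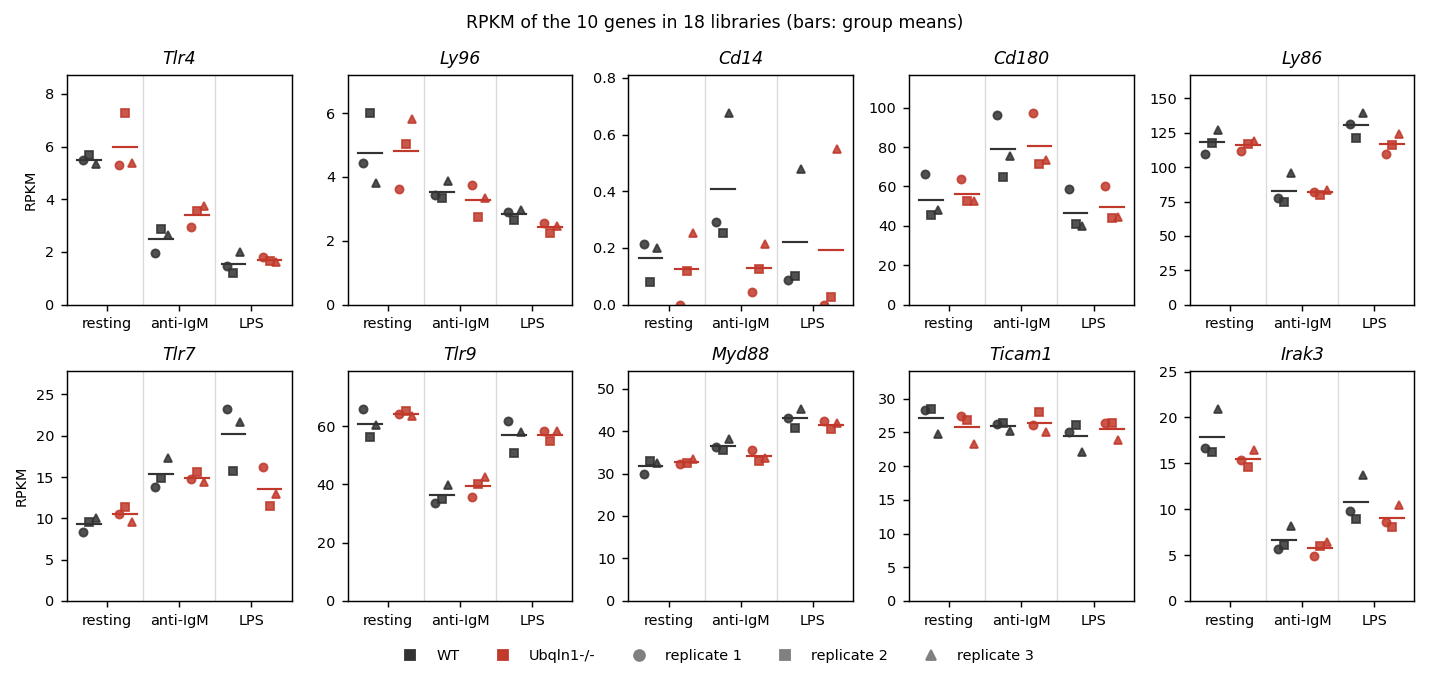
RPKM (y axis, linear from 0) of each gene in the 18 libraries by stimulus, with WT in black, *Ubqln1*-/- in red, symbols for the replicate number and horizontal bars for group means. *Tlr4* lies at or above 5.29 in every resting library and at or below 2.00 in every LPS library, and the 3 *Ubqln1*-/- LPS libraries of *Tlr7* (11.5 to 16.2) lie lower than the WT ones (15.8 to 23.2) with a small overlap.

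The 2 stimuli moved this group of genes in different ways. After anti-IgM, 3 of the 10 genes rose and 4 fell in WT cells (*Tlr7*, *Cd180* and *Myd88* up, *Irak3*, *Tlr4*, *Tlr9* and *Ly86* down), where 32.4% of all tested genes were called higher and 32.2% lower. In *Ubqln1*-/- cells 2 rose and 5 fell, with *Ly96* added to the genes that fell and *Myd88* not called, against 32.9% higher and 32.4% lower over all genes. After LPS, *Tlr7* and *Myd88* rose and *Tlr4*, *Ly96* and *Irak3* fell in both genotypes, 2 genes up and 3 down, where 31.2% of all genes were called higher and 30.1% lower in WT cells and 30.6% and 30.2% in *Ubqln1*-/- cells. These shares of called members are near those of all genes, so the counts by themselves set the 10 genes apart from no others. Over the 10 genes the median response to anti-IgM was -0.25 (WT) and -0.27 (*Ubqln1*-/-) on the log2 scale, and to LPS -0.13 and -0.10, beside -0.01, -0.02, -0.01 and -0.02 over all genes.

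**Figure D2:**
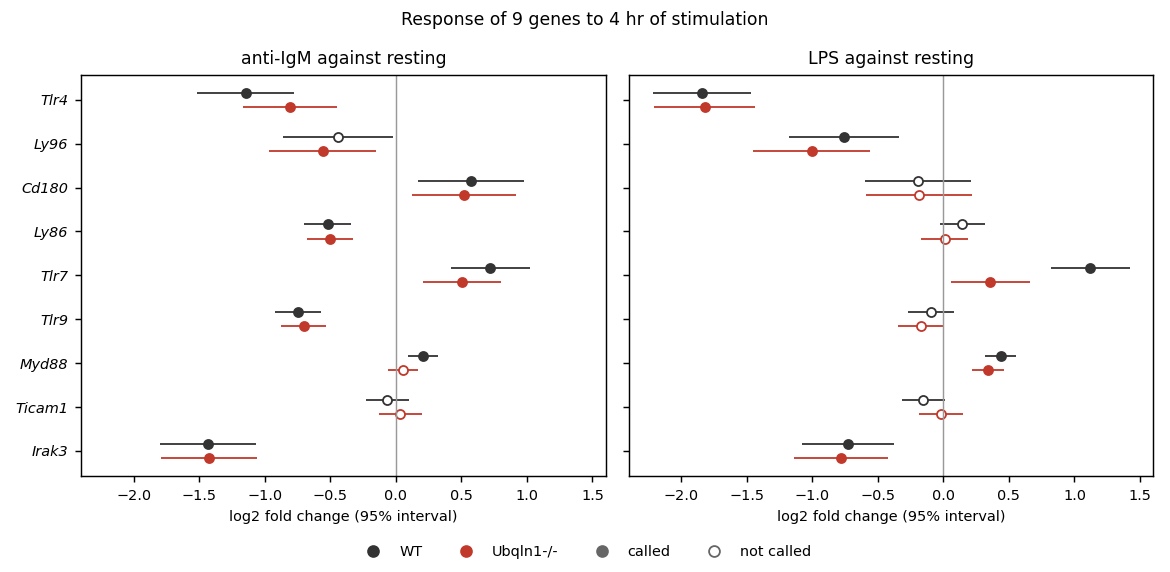
Log2 fold change against resting cells (x axis) with 95% intervals for 9 of the 10 genes, anti-IgM on the left and LPS on the right, with filled points for called genes and open points for the rest; *Cd14* is left out for its low counts. *Tlr4* and *Irak3* fell under both stimuli, *Tlr7* rose under both, and *Tlr9*, *Ly86* and *Cd180* were called under anti-IgM only.

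*Tlr9* fell after anti-IgM, *Irak3* fell after both stimuli and *Cd180* rose after anti-IgM. *Myd88* rose after LPS, and after anti-IgM in WT cells only. Upstream sequence of these 4 genes, which differed in their response, is shown here. Each is the 250 bases before the outermost RefSeq start of the gene in GRCm38.p6, on the gene's own strand, at chr9:106222348-106222597 (plus strand) for *Tlr9*, chr10:120202131-120202380 (minus) for *Irak3*, chr13:102693297-102693546 (plus) for *Cd180* and chr9:119340019-119340268 (minus) for *Myd88*. RefSeq windows of 6 of the 10 genes were used here, and upstream sequence of the remaining genes was not searched. Capitals mark matches, on either strand, to GAGGAAG, the core bound by PU.1, or to GAAANNGAA, a core of the interferon-stimulated response element.
Tlr9: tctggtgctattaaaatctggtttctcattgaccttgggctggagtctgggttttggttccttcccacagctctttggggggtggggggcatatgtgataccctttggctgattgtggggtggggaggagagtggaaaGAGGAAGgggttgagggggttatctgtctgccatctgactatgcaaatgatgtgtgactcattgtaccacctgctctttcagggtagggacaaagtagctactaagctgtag
Irak3: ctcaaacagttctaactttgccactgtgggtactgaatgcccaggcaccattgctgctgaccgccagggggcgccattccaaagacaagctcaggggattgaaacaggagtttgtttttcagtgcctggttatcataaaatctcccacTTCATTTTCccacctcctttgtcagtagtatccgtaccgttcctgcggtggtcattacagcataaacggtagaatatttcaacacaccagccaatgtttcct
Cd180: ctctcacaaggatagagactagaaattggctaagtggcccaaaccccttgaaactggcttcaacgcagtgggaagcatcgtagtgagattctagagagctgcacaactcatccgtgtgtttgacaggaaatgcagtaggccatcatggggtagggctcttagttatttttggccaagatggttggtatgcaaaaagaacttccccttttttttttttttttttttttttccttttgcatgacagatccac
Myd88: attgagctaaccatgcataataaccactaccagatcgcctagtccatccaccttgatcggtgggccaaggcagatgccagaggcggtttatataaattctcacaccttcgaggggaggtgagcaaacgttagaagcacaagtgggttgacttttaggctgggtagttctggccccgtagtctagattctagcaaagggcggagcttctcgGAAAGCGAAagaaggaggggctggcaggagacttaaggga

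*Tlr9* held 1 match to the PU.1 core, 112 bases before its start, as do 10.6% of the 32851 promoter windows of this length in the same table. A match to the interferon element core was found 102 bases before the start of *Irak3* and 40 bases before that of *Myd88*, and 7.13% of all windows hold one. *Cd180* held neither, and no window of the 4 genes held the NF-kappaB consensus, which 3.90% of all windows have. The windows before other RefSeq starts of *Irak3* and *Cd180* held no match to any of these motifs. Such matches describe the letters and not the binding of a factor. The windows of *Ly86* and *Ticam1* were searched as well, and the only match was to the PU.1 core, 30 bases before the start of *Ticam1*.

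*Tlr4*, the LPS receptor (chr4:66827551-66846581 on the plus strand of GRCm38, a protein-coding gene), fell under both stimuli and more after LPS. It was 5.50, 5.69 and 5.33 RPKM in resting WT cells, 1.95, 2.88 and 2.65 after anti-IgM and 1.45, 1.19 and 2.00 after LPS. In *Ubqln1*-/- cells it was 5.29, 7.28 and 5.38 at rest, 2.95, 3.55 and 3.75 after anti-IgM and 1.82, 1.66 and 1.60 after LPS. Every stimulated library was below every resting library in both genotypes. After LPS the log2 fold change was -1.84 (SE 0.178) in WT cells, with an edgeR adjusted p of 2.3e-07, and -1.82 (SE 0.182) in *Ubqln1*-/- cells, with an adjusted p of 3.27e-07, which leaves 0.279 and 0.283 of the resting level. After anti-IgM it was -1.15 (SE 0.175, edgeR adjusted p 2.2e-05) in WT and -0.81 (SE 0.169, 0.000475) in *Ubqln1*-/- cells.

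*Tlr4* was lower with LPS than with anti-IgM in both genotypes, by a log2 difference of -0.70 (edgeR adjusted p 0.00677) in WT and -1.01 (0.000385) in *Ubqln1*-/- cells. The WT groups overlapped in this comparison, and the call was lost when the spread was estimated from those groups alone (adjusted p 0.0672). The genes with the most similar pattern over the 18 libraries were *Scarb2* and *Pla2g15*, which encode lysosomal proteins, with Pearson correlations of log2 CPM of 0.972 and 0.970. These libraries share their stimuli, so the correlations describe the pattern across the 6 groups.

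Markers of macrophages moved in both directions while *Tlr4* fell. *Mertk*, also chosen as a macrophage marker, was not matched to a counted gene, so it is not in the list used here. Of the 9 macrophage and monocyte genes in the list, *C1qa*, *C1qb*, *C1qc* and *Marco* stayed under 1 CPM in every library, and the list summed to between 30.8 and 58.0 CPM in resting libraries, 25.0 and 29.5 after anti-IgM and 22.2 and 29.3 after LPS. *Csf1r*, which encodes the CSF-1 receptor of macrophages, fell after LPS from 2.49 to 3.39 CPM to 0.305 to 0.430 CPM in WT cells and from 1.57 to 2.75 CPM to 0.413 to 0.823 CPM in *Ubqln1*-/- cells. *Lyz2*, which encodes lysozyme, fell from 3.26 to 6.82 CPM to 1.03 to 2.47 CPM in WT cells. After LPS 4 of the 5 tested genes of the list fell in each genotype (*Adgre1* and *Itgam* besides), and *Cd68*, which encodes a lysosomal protein of phagocytes, rose in WT cells (0.45, edgeR adjusted p 0.024) and was 0.38 (0.0574) in *Ubqln1*-/- cells. After anti-IgM *Adgre1* (-1.66 in WT and -1.65 in *Ubqln1*-/- cells) and *Itgam* (-1.015 and -2.26) fell and *Cd68* rose (0.70 and 0.74), while *Csf1r* (-0.57 and -0.14) and *Lyz2* (-0.23 and -0.27) were not called. *Tlr4* itself was 20.4 to 28.0 CPM in resting libraries, and the part of macrophages in its fall was not tested.

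*Ly96*, which encodes the MD-2 subunit that binds LPS (chr1:16688456-16709605, plus strand), rested on 26 to 93 counts per library. In resting cells it was 4.45, 6.01 and 3.80 RPKM (WT) and 3.61, 5.05 and 5.82 RPKM (*Ubqln1*-/-). With LPS it was 2.89, 2.66 and 2.97 RPKM in WT and 2.56, 2.24 and 2.46 in *Ubqln1*-/- cells, below every resting library. The log2 fold change after LPS was -0.76 (SE 0.197, edgeR adjusted p 0.00312) in WT cells and -1.001 (SE 0.210, 0.000582) in *Ubqln1*-/- cells. The transcripts of both parts of the LPS-binding receptor thus stood lower 4 hr after LPS.

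After anti-IgM, *Ly96* was 3.44, 3.33 and 3.86 RPKM in WT and 3.76, 2.75 and 3.33 RPKM in *Ubqln1*-/- cells, overlapping the resting libraries in both genotypes. It was called in *Ubqln1*-/- cells (-0.56, edgeR adjusted p 0.0191) and not in WT cells (-0.44, 0.0617). Single libraries decided both: the knockout call was lost without anti-IgM replicate 2 (-0.43, adjusted p 0.101), resting replicate 3 (-0.41, 0.108) or resting replicate 2 (-0.52, 0.06), and a WT call appeared without resting replicate 3 (-0.58, 0.0254). The most similar genes were *Cgrrf1* (r = 0.904 over 18 libraries) and *Ywhaz* (0.891).

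*Cd14*, the LPS co-receptor of myeloid cells, was barely detected. Its counts were 5, 3 and 6 in resting WT libraries, 11, 10 and 20 after anti-IgM and 4, 6 and 20 after LPS, and in *Ubqln1*-/- libraries 0, 4 and 8, then 2, 6 and 7, then 0, 1 and 15. The highest level was 0.677 RPKM, and a count of 0 allows up to 0.142 CPM in the resting and 0.178 CPM in the LPS library that had none. Replicate 3 held the most counts in each of the 6 groups. No difference was called, so at this depth a change in *Cd14* was not detectable, with the exception of anti-IgM in WT cells when the replicate number was a block (edgeR adjusted p 0.0485).

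*Cd180*, which encodes RP105 (chr13:102693547-102706631, plus strand), rose with anti-IgM. It was 66.3, 45.5 and 47.8 RPKM in resting WT cells, 96.5, 65.0 and 75.6 after anti-IgM and 58.7, 40.8 and 39.8 after LPS. The *Ubqln1*-/- libraries were at 63.8, 52.7 and 52.4 RPKM at rest, 97.4, 71.2 and 73.7 after anti-IgM and 60.3, 44.0 and 44.6 after LPS. Replicate 1 was the highest of its group in all 6 groups, so the WT resting and anti-IgM libraries overlapped although anti-IgM was higher within each replicate number. The log2 fold change was 0.57 (SE 0.192, edgeR adjusted p 0.0148) in WT and 0.52 (SE 0.191, 0.0247) in *Ubqln1*-/- cells.

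The call for *Cd180* after anti-IgM was lost without anti-IgM replicate 1 (0.41, edgeR adjusted p 0.0839, in WT; 0.37, 0.124, in *Ubqln1*-/- cells), and without resting replicate 2 (0.48, 0.0664; 0.48, 0.0722) or resting replicate 3 (0.51, 0.0565; 0.47, 0.0772). These fits had no replicate term. In the fit of all libraries with a replicate block the rise was called in both genotypes. It was 0.57 (SE 0.055, edgeR adjusted p 4.28e-08) in WT and 0.51 (SE 0.055, 1.84e-07) in *Ubqln1*-/- cells. After LPS *Cd180* was not called (-0.19 in WT and -0.18 in *Ubqln1*-/- cells, adjusted p 0.397 and 0.425). With the replicate number as a block the same differences were called as lower, at -0.20 (SE 0.055, edgeR adjusted p 0.00424) and -0.19 (SE 0.056, 0.00544). LPS and anti-IgM differed by -0.77 (edgeR adjusted p 0.00487) in WT and -0.70 (0.00955) in *Ubqln1*-/- cells, with the groups apart in both. The second was lost without anti-IgM replicate 1 (-0.55, adjusted p 0.0598). The genes nearest in pattern were *Rasal1* (r = 0.940), a Ras GTPase activator, and *Lck* (0.935), a Src-family kinase.

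*Ly86*, the gene of the RP105 partner MD-1 (chr13:37345345-37419036, plus strand), had the highest level of the 10 and went the other way from *Cd180*. In WT cells it was 110, 118 and 127 RPKM at rest, 77.4, 74.9 and 95.5 after anti-IgM and 132, 121 and 140 after LPS. The knockout cells had 112, 117 and 119 RPKM at rest, 82.2, 79.6 and 83.1 after anti-IgM and 110, 116 and 124 after LPS. All anti-IgM libraries were below all resting and all LPS libraries of their genotype. The log2 fold change after anti-IgM was -0.52 (SE 0.084, edgeR adjusted p 3.82e-05) in WT and -0.51 (SE 0.083, 4.97e-05) in *Ubqln1*-/- cells. After LPS *Ly86* was not called (0.15 in WT, adjusted p 0.14, and 0.01 in *Ubqln1*-/- cells, 0.923), but in WT cells it was with the replicate block (0.15, edgeR adjusted p 0.0321). *Mtmr14* (r = 0.966) and *Setdb2* (0.963) were the genes most like it.

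Set side by side, the transcripts of the RP105 complex gained on those of the LPS receptor after stimulation. The RPKM ratio of *Cd180* to *Tlr4* was 7.99 to 12 in resting WT and 7.23 to 12.1 in resting *Ubqln1*-/- libraries. It was 22.6 to 49.5 and 19.6 to 33 after anti-IgM, and 19.9 to 40.4 and 26.5 to 33.1 after LPS, above every resting library. The ratio of *Ly86* to *Ly96* was 19.6 to 33.4 in resting WT cells and 20.4 to 30.9 in resting *Ubqln1*-/- cells, 22.5 to 24.7 and 21.9 to 28.9 after anti-IgM, and 45.5 to 47.0 and 42.7 to 51.8 after LPS. The receptor ratio was therefore above its resting range under both stimuli, and the ratio of the partner subunits under LPS only. These ratios are given as a description, with no test.

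**Figure D3:**
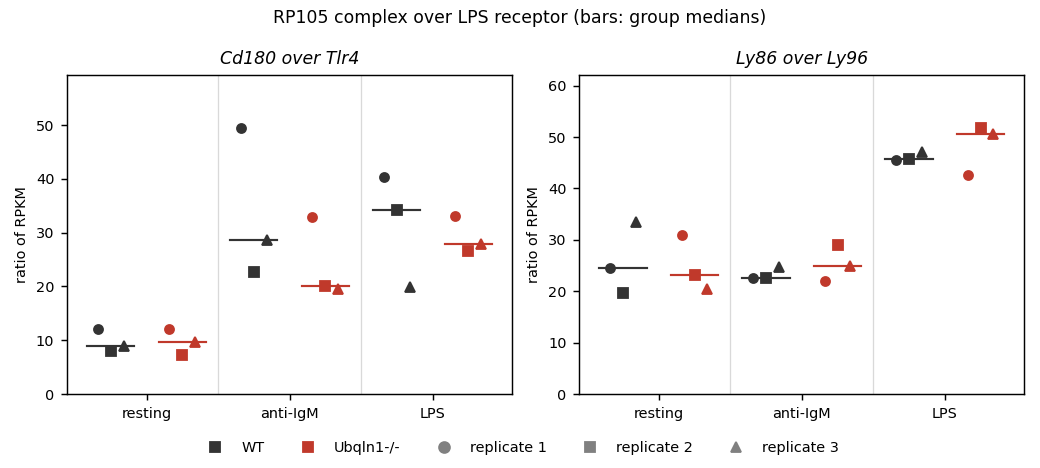
Ratio of RPKM (y axis, linear from 0) of *Cd180* to *Tlr4* on the left and of *Ly86* to *Ly96* on the right in each of the 18 libraries, with bars for group medians. The *Cd180* to *Tlr4* ratio is at most 12.1 at rest and at least 19.6 after either stimulus, whereas the *Ly86* to *Ly96* ratio stands above 42 only after LPS.

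*Tlr7*, the endosomal RNA sensor on the X chromosome (X:167303380-167330574, minus strand), rose with both stimuli. It was 8.29, 9.56 and 10.0 RPKM in resting WT cells, 13.7, 14.9 and 17.3 after anti-IgM and 23.2, 15.8 and 21.7 after LPS. *Ubqln1*-/- libraries were at 10.6, 11.4 and 9.61 at rest, 14.8, 15.6 and 14.4 after anti-IgM and 16.2, 11.5 and 13.0 after LPS. Each stimulated group lay above its resting group. In WT cells the log2 fold change was 1.12 (SE 0.141, edgeR adjusted p 3.92e-06) after LPS and 0.72 (SE 0.142, 0.000289) after anti-IgM. In *Ubqln1*-/- cells it was 0.36 (SE 0.142, 0.038) after LPS and 0.50 (SE 0.140, 0.0048) after anti-IgM.

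The rise of *Tlr7* after LPS in *Ubqln1*-/- cells was near the threshold. It was not called by limma with voom (0.33, adjusted p 0.0642), without TMM factors (0.28, edgeR adjusted p 0.102), or without LPS replicate 1 (0.22, 0.203) or 3 (0.39, 0.0522) or resting replicate 1 (0.37, 0.0767) or 3 (0.30, 0.128). LPS gave more *Tlr7* than anti-IgM in WT cells (0.40, edgeR adjusted p 0.0337), where the groups overlapped, but leaving out anti-IgM replicate 1 (0.33, 0.127) or 2 (0.38, 0.0968) or LPS replicate 1 (0.29, 0.163) or 3 (0.345, 0.108) ended this call. In *Ubqln1*-/- cells LPS and anti-IgM differed by -0.15 (95% interval -0.44 to 0.15, adjusted p 0.482). The genes most like *Tlr7* were the interferon-induced *Bst2* (r = 0.876 over 18 libraries), which encodes tetherin, and *Ogfr* (0.868).

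*Tlr9*, the endosomal sensor of unmethylated DNA (chr9:106222598-106226876, plus strand), fell with anti-IgM and kept most of its level with LPS. In WT cells it was 65.8, 56.2 and 60.5 RPKM at rest, 33.7, 35.1 and 39.9 after anti-IgM and 61.7, 50.9 and 58.0 after LPS. The same gene in *Ubqln1*-/- cells was 64.2, 65.4 and 63.5 at rest, 35.7, 40.3 and 42.7 after anti-IgM and 58.3, 54.8 and 58.2 after LPS. The anti-IgM libraries were below all others of their genotype. The log2 fold change after anti-IgM was -0.75 (SE 0.084, edgeR adjusted p 7.58e-07) in WT and -0.70 (SE 0.084, 1.48e-06) in *Ubqln1*-/- cells. After LPS it was -0.10 (adjusted p 0.329) and -0.17 (0.084).

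The LPS libraries of *Ubqln1*-/- cells did lie below the resting ones for *Tlr9*, and the difference was called with the replicate block (-0.17, edgeR adjusted p 0.0441), with only the groups compared (-0.165, 0.0159) and without TMM factors (-0.25, 0.0142). With LPS, *Tlr9* stood 0.65 (edgeR adjusted p 1.08e-05) above anti-IgM in WT and 0.53 (0.000105) in *Ubqln1*-/- cells. Its pattern was nearest to *Fgd2* (r = 0.979) and *Flna* (0.975), genes of actin regulation. Of the 2 nucleic acid sensors, anti-IgM therefore raised *Tlr7* and lowered *Tlr9*, 2 receptors that both need the same trafficking protein, UNC93B1.

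*Myd88*, the shared adaptor (chr9:119335934-119340018, minus strand), rose modestly and with little spread. In WT cells it was 29.9, 32.9 and 32.4 RPKM at rest, 36.2, 35.5 and 38.1 after anti-IgM and 43.1, 40.7 and 45.1 after LPS. The *Ubqln1*-/- libraries were at 32.3, 32.6 and 33.5, then 35.6, 32.98 and 33.7, then 42.3, 40.4 and 41.8. LPS libraries were above all others in both genotypes. After LPS the log2 fold change was 0.44 (SE 0.054, edgeR adjusted p 3.31e-06) in WT and 0.34 (SE 0.055, 4.79e-05) in *Ubqln1*-/- cells, and after anti-IgM it was 0.20 (SE 0.055, 0.00359) and 0.06 (SE 0.054, 0.37).

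*Myd88* was higher with LPS than with anti-IgM by 0.23 (edgeR adjusted p 0.00287) in WT and 0.28 (0.000636) in *Ubqln1*-/- cells. The exons of *Myd88* share 290 bases, 11.3% of their length, with *Acaa1a* on the other strand, and the library kit does not mark strand, so reads there cannot be told apart. Smaller such overlaps were found for *Irak3* with *Tmbim4* (5.2%) and for *Cd180* with *Mast4* (4.0%). The patterns nearest to *Myd88* were those of *Herpud1* (r = 0.955) and *Relb* (0.954), an NF-kappaB subunit.

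*Ticam1*, the TRIF adaptor (chr17:56269462-56276767, minus strand), was the member with the flattest profile. It was 28.4, 28.4 and 24.8 RPKM in resting WT cells, 26.2, 26.4 and 25.2 after anti-IgM and 25.1, 26.1 and 22.1 after LPS. In *Ubqln1*-/- cells it was 27.5, 26.8 and 23.2 at rest, 26.2, 28.0 and 25.1 after anti-IgM and 26.4, 26.4 and 23.9 after LPS. All groups overlapped and replicate 3 was the lowest in each. The log2 fold changes were between -0.15 and 0.03, and the 95% intervals reached no further than -0.32 and 0.20. The lowest, -0.15 in WT cells after LPS (adjusted p 0.105), was called with the replicate block (edgeR adjusted p 0.00633), without TMM factors (-0.235, 0.0201) and without resting replicate 3 (-0.215, 0.0305). The 2 genes most like it (r = 0.870 for each) had no symbol in the gene table.

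*Irak3*, the gene of the inhibitor IRAK-M (chr10:120141648-120202130, minus strand), fell the most of all 10 after anti-IgM. It was 16.7, 16.2 and 20.9 RPKM in resting WT cells, 5.62, 6.12 and 8.21 after anti-IgM and 9.82, 8.89 and 13.8 after LPS. Libraries of *Ubqln1*-/- cells were at 15.4, 14.6 and 16.5 at rest, 4.88, 6.01 and 6.42 after anti-IgM and 8.59, 8.01 and 10.5 after LPS. The 3 conditions did not overlap in either genotype. The log2 fold change after anti-IgM was -1.44 (SE 0.172, edgeR adjusted p 1.5e-06) in WT and -1.43 (SE 0.172, 1.64e-06) in *Ubqln1*-/- cells. After LPS it was -0.73 (SE 0.166, 0.00112) and -0.78 (SE 0.170, 0.000778). LPS stood 0.71 (edgeR adjusted p 0.0039) and 0.65 (0.00877) above anti-IgM. *Itgb7* (r = 0.979) and *Stac2* (0.976) were nearest in pattern.

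Compared directly, the 2 stimuli differed at 7 of the 10 genes in WT cells, with 5 higher after LPS (*Ly86*, *Tlr9*, *Irak3*, *Tlr7* and *Myd88*) and 2 lower (*Cd180* and *Tlr4*), where 17.4% of all genes were called higher and 15% lower. For *Ubqln1*-/- cells 4 were higher and 2 lower, the same genes without *Tlr7*, against 16.8% and 14.5% of all genes. The count in WT cells was 4 when only the LPS and anti-IgM libraries were fitted, with *Tlr4*, *Tlr7* and *Myd88* not called.

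Other genes of these pathways, from lists of other Toll-like receptors, trafficking proteins, adaptors, kinases, interferon regulatory factors and targets, were read in the same fit. Their counts stand beside the shares of all genes already given, 32.2% to 32.9% called in each direction after anti-IgM and 30.1% to 31.2% after LPS, and are given as counts only. Of the 9 other Toll-like receptors, 6 were tested, and *Tlr5*, *Tlr8* and *Tlr11* had too few counts. After anti-IgM 4 of the 6 fell in both genotypes, with log2 values, WT first and *Ubqln1*-/- second, of -2.23 and -2.16 for *Tlr1*, -1.90 and -1.64 for *Tlr12*, -1.76 and -1.65 for *Tlr6* and -1.71 and -1.89 for *Tlr3*. After LPS 2 fell in each genotype, *Tlr12* in both (-1.77 and -1.79), *Tlr6* in WT (-0.57) and *Tlr3* in *Ubqln1*-/- cells (-0.92), and *Tlr1* rose in *Ubqln1*-/- cells (0.39). *Tlr7* was thus the only Toll-like receptor gene of the 9 tested here that rose after anti-IgM.

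**Figure D4:**
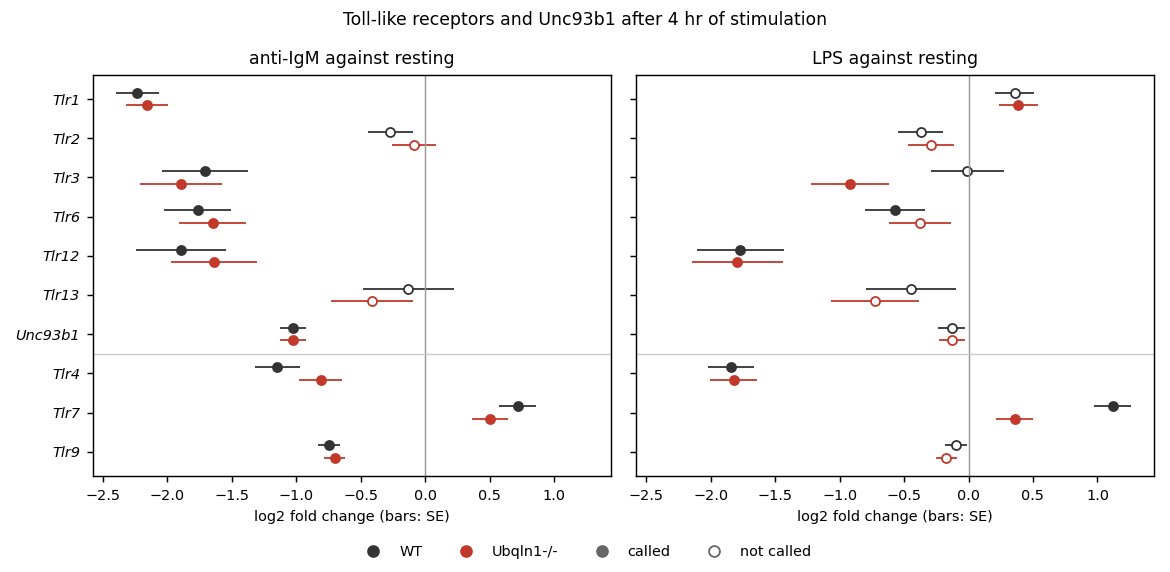
Log2 fold change against resting cells (x axis, bars give the SE) for 6 other Toll-like receptors and *Unc93b1* above the line and for *Tlr4*, *Tlr7* and *Tlr9* below it, in WT (black) and *Ubqln1*-/- (red) cells, with filled points for called genes. After anti-IgM *Tlr7* is the only receptor to the right of 0 in both genotypes, while *Tlr1* has the lowest value, -2.23 in WT cells.

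Among the trafficking genes, *Unc93b1*, which escorts the endosomal receptors, fell after anti-IgM (log2 fold change -1.03 in both genotypes) and *Hsp90b1*, the chaperone of Toll-like receptors, rose by 0.62 and 0.56. Of the 6 other adaptors and regulators, 3 rose and 2 fell after anti-IgM in each genotype, where 32.4% of all genes rose and 32.2% fell in WT cells. *Pik3ap1*, the adaptor BCAP, rose by 1.61 and 1.39 after anti-IgM, *Ticam2*, the TRAM adaptor that links TRIF to TLR4, rose by 1.02 and 1.02 after anti-IgM and 1.61 and 1.61 after LPS, and *Sigirr*, an inhibitory receptor of the family, fell (-1.43 and -1.17 after anti-IgM, -1.31 and -1.32 after LPS). While *Ticam1* was not called, its partner *Ticam2* therefore rose under both stimuli.

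Of 14 kinases and ubiquitin ligases tested below the adaptors, 1 rose and 7 fell after anti-IgM in WT cells, and 0 and 7 in *Ubqln1*-/- cells. After LPS 6 rose and 4 fell, and 6 and 3, near the 31.2% higher and 30.1% lower of all genes in WT cells. The strongest was *Ikbke*, which encodes IKK-epsilon, at 1.87 and 2.01 after LPS and -0.77 and -0.60 after anti-IgM. *Irf7*, the interferon regulatory factor below TLR7 and TLR9, rose after LPS by 2.00 in WT and 0.63 in *Ubqln1*-/- cells and fell after anti-IgM (-1.47 and -1.61), *Irf5* moved by 0.46 and 0.49 and by -0.52 and -0.47, and *Irf3* was not called in any of these.

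Targets of both arms rose after LPS. All 7 genes of the MyD88 and NF-kappaB list rose in both genotypes, with medians of 2.89 (WT) and 2.81 (*Ubqln1*-/-) on the log2 scale (*Il6* by 5.25 and 5.11), and 5 of the 7 rose after anti-IgM in each. Of the 8 tested TRIF and interferon targets, 8 rose after LPS in WT and 7 in *Ubqln1*-/- cells, with medians of 4.03 and 2.20. *Cxcl10* rose by 6.36 and 5.64, *Ifit1* by 5.61 and 4.80, *Isg15* by 4.31 and 3.95, *Rsad2* by 4.25 and 2.31 and *Ifit3* by 3.80 and 1.45. After anti-IgM 4 of the 8 fell in WT and 3 in *Ubqln1*-/- cells.

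Between genotypes, the main fit, which has no replicate term, called none of the 10 genes at rest, after anti-IgM or after LPS. It called 0.0565%, 0.0989% and 0.0424% of all genes there. With the replicate block *Tlr7* was called after LPS (-0.58, edgeR adjusted p 0.043), where 125 of all genes were called. The 95% intervals of the genotype difference at rest lay within -0.56 and 0.49 on the log2 scale for the 9 genes other than *Cd14*, and were narrowest for *Myd88* (-0.07 to 0.16). Nor was the response to anti-IgM or to LPS called as different between genotypes for any of the 10, by the interaction term of the edgeR fit, which called 0 of the 14161 genes (0%) for either stimulus, while 140 and 220 genes had an unadjusted p under 0.05. DESeq2 was also run for these terms and called none of the 10 genes.

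*Tlr7* after LPS had the largest genotype difference among the genes other than *Cd14*. The log2 difference between *Ubqln1*-/- and WT cells was -0.58 (SE 0.139, 95% interval -0.88 to -0.29), with an unadjusted p of 0.000648 and an edgeR adjusted p of 0.242. It was lower in *Ubqln1*-/- cells in each of the 3 replicate numbers, at 16.2 against 23.2, 11.5 against 15.8 and 13.0 against 21.7 RPKM, although the groups overlapped. The difference was called with the replicate block (-0.58, edgeR adjusted p 0.043), by DESeq2 (-0.59, adjusted p 0.0273) and without WT LPS replicate 2 (-0.74, edgeR adjusted p 0.0161). The difference of the LPS responses was -0.76 (SE 0.199, unadjusted p 0.00146, edgeR adjusted p 1). At rest *Tlr7* differed by 0.18 (95% interval -0.12 to 0.48) and after anti-IgM by -0.04 (-0.33 to 0.25).

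Several interferon genes were ordered like *Tlr7* in these libraries. *Irf7* was 75.2, 32.5 and 61.3 CPM in the WT and 38.3, 22.9 and 27 CPM in the *Ubqln1*-/- LPS libraries, and *Ifit3* was 28.7, 9.48 and 22.8 against 11.2, 5.15 and 7.08 CPM. As for *Tlr7*, replicate 2 was the lowest and replicate 1 the highest in each genotype, an order that *Isg15* and *Cxcl10* did not share. The log2 difference between genotypes after LPS was -0.94 for *Irf7* (edgeR adjusted p 0.287), -1.40 for *Ifit3* (0.371) and -1.14 for *Rsad2* (0.161), none of them called. The median over the 8 interferon targets was -0.80 beside 0.004 over all genes. At rest the same 3 genes lay the other way, with every *Ubqln1*-/- library above every WT library (*Irf7* 15.9 to 20.7 against 13.2 to 15.4 CPM, *Ifit3* 2.78 to 2.89 against 1.28 to 1.64 CPM, *Rsad2* 1.21 to 1.47 against 0.639 to 0.897 CPM), and these differences were not called either (0.42, 0.96 and 0.80, each with an edgeR adjusted p of 1). These 3 were picked after their values were seen, and *Cxcl10* overlapped between genotypes at rest. The median over the 8 interferon targets at rest was 0.19, beside 0.002 over all genes. The share of all genes with genotypes apart was not counted. The median over the 7 genes of the NF-kappaB list was -0.06 after LPS and -0.04 at rest. *Nfkbia*, *Tnfaip3* and *Tnf* of this list, also picked after their values were seen, differed by 0.04, -0.06 and 0.08.

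Every WT LPS library was deeper (28590363 to 41072854 counts) than every *Ubqln1*-/- LPS library (17224952 to 27515442), and *Tlr7* had between 885 and 2692 counts in them. The part of this depth gap in the difference was not tested. *Xist* was high and the 4 Y-linked genes were under 1 CPM in every library of both genotypes, so the genotypes did not differ in the sex these transcripts mark.

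Among the other members, *Tlr4* after anti-IgM was higher in all 3 *Ubqln1*-/- libraries (2.95, 3.55 and 3.75 RPKM) than in all 3 WT libraries (1.95, 2.88 and 2.65 RPKM). The log2 difference was 0.45 (95% interval 0.08 to 0.82, unadjusted p 0.0193), which did not pass the correction (edgeR adjusted p 0.801). *Ly96* after LPS and *Cd14* after anti-IgM were the other members whose genotypes did not overlap, at -0.23 (95% interval -0.68 to 0.22) and -1.68 (-3.66 to 0.31), both on few counts. The share of all genes whose genotypes did not overlap was not counted, so these cases are given as description only. For *Cd180* the difference after LPS was 0.10 (95% interval -0.31 to 0.50), and for *Irak3* it was -0.26 (-0.62 to 0.10).

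**Figure D5:**
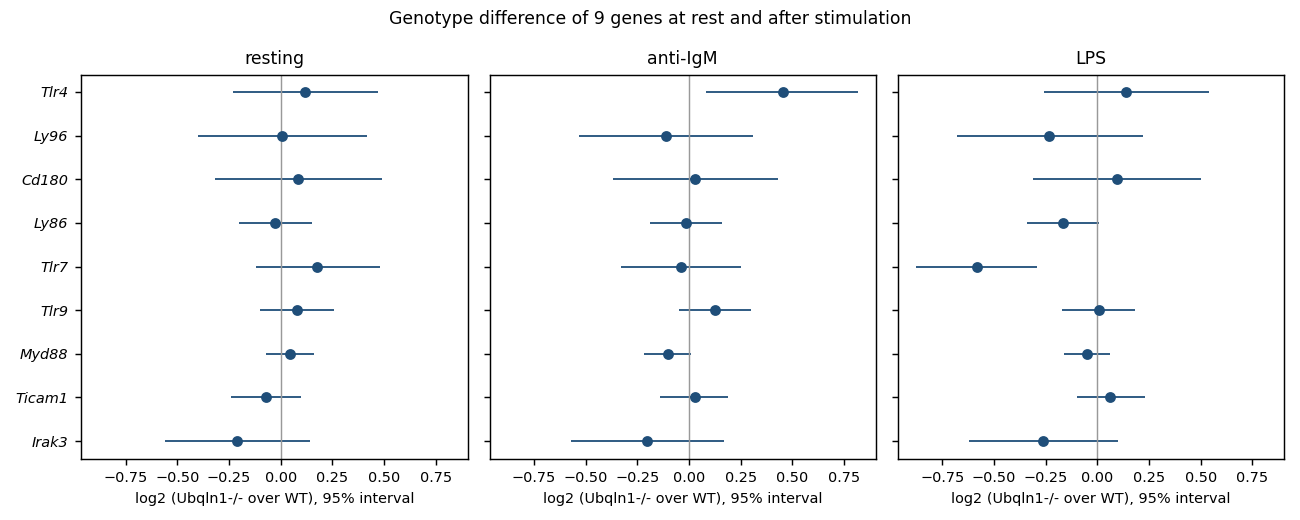
Log2 difference between *Ubqln1*-/- and WT cells (x axis, 95% intervals) for 9 genes at rest, after anti-IgM and after LPS; *Cd14* is left out for its low counts. Only *Tlr7* after LPS (-0.58) and *Tlr4* after anti-IgM (0.45) have intervals that leave out 0, and neither passed the adjusted threshold in the main fit.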

How the data were processed

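TruSeq v2 libraries, which do not mark strand, were sequenced as single-end reads. The authors aligned the reads to GRCm38 with GSNAP and deposited, for every Entrez gene, the raw count of its exonic reads. The counting program and annotation release are not given in the sources used here. The authors also deposited RPKM, scaled to a larger library total, in which the group means of the members are 83.4% to 88.9% of those given here. Here RPKM was computed from the count, the deposited gene width and the TMM-scaled library size, and CPM from the same size. The RefSeq gene table of GRCm38.p6 named 89.11% of the genes.

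All 18 libraries were fitted together in edgeR 4.0.16 (R 4.3.3) with TMM factors of 0.958 to 1.038, filterByExpr, 1 term per group and no replicate term, since the authors' limma models had a single term. For *Myc* and *Ccnd2* levels from the same RNASeq the paper used paired T tests. A fit with a replicate block was therefore run beside the main one. The SE is the log2 fold change over the square root of F. Comparisons were stimuli within a genotype, genotypes within a stimulus, and their interactions. Alternatives were limma 3.58.1 with voom, DESeq2 1.42.0, other scalings, no filter, the compared groups alone, a replicate block, the study's thresholds and leaving out each library. The code was tested on simulated data. Floors cover counting error only, since reads without molecular identifiers are not independent molecules.

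Replicate 1 was numbered by elimination, as only 2 and 3 are numbered in the labels. Same-numbered libraries deviated together from their group means (correlations of 0.205 to 0.516 in 8 of the 9 comparisons of 2 groups), so the numbers were taken to pair libraries there. The members, gene lists and tests were chosen with earlier results of these data known. All 10 members are named. Other pathway genes are named if called with a log2 fold change beyond 1 in both genotypes for a stimulus, at most 6 per stimulus by size in WT cells, or if a count of 5 or fewer pointed to them, and the 2 genes with the highest Pearson correlation of log2 CPM (prior count 2) are named for each member. *Csf1r*, *Lyz2*, *Adgre1*, *Itgam*, *Cd68*, *Zbtb46*, *Flt3*, *Xcr1*, *Clec9a*, *Nfkbia*, *Tnfaip3* and *Tnf*, and the per-library values of *Irf7*, *Ifit3* and *Rsad2*, were chosen after their values were seen.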

Additional observations from a re-analysis of the deposited data

How the results depend on the processing

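Of 1540 log2 values of the 10 genes under an alternative, 1398 kept their direction and their side of the threshold, 24 lost a call, 15 gained one, and no called value changed sign. In 103 the sign changed with no call in either fit, 84 of them when 1 library was left out, and their size in the main analysis was at most 0.546 for *Cd14* and 0.139 for the other genes. The study's own thresholds (absolute log2 fold change over 2 and adjusted p under 0.001) called 0 of the 10 genes in each of the 6 comparisons of stimuli, since no log2 fold change of a member reaches 2 in size. With the replicate block 8 genes were called after LPS in WT cells in place of 5 (*Cd180*, *Ly86* and *Ticam1* added), and with the block or DESeq2 1 gene, *Tlr7*, was called between genotypes after LPS in place of 0. The block also called *Cd180* and *Tlr9* after LPS in *Ubqln1*-/- cells and *Cd14* after anti-IgM in WT cells, and it changed no other call of the 10 genes. With only the compared groups fitted, 4 genes were called between LPS and anti-IgM in WT cells in place of 7. For *Ubqln1*-/- against WT at rest the numbers could not be taken to pair the libraries, since 1 of the 3 correlations was 0.083, although every library correlated best with its own number. Leaving out 1 library gave 0 to 1 members called between genotypes after LPS, the 1 being *Tlr7* without WT LPS replicate 2.

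Over all genes, the counts called between genotypes at rest, after anti-IgM and after LPS were 8, 14 and 6, and with the replicate block 49, 94 and 125, by DESeq2 32, 47 and 51, and with only the compared groups 5, 2 and 2. Leaving out 1 library gave 2 to 11 at rest, 2 to 10 after anti-IgM and 2 to 37 after LPS. The count of 37 came without WT LPS replicate 2, which also gave 10 genes for the difference of LPS responses in place of 0. Depth limits *Cd14* and *Ly96*, with 0 to 20 and 26 to 93 counts per library.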
